A study of Triticum aestivum with 8 samples.

Results

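Some accessible regions of the wheat genome held open DNA at each sampled stage of grain development while the stretch of open DNA became much shorter. These are the loci described here. Accessible chromatin regions (ACRs) of 4 stages that shared at least 1 bp were joined into a locus, which gave 180461 loci. An ACR of each stage was present in 42864 of them (23.8%), called constant loci below. The ACRs of a constant locus need not share a base across all 4 stages. For each constant locus the widths of its ACRs were added up per stage, and the 7854 loci whose width at 20 days was at most 0.5 times their width at 5 days were kept. They made up 18.3% of the constant loci (Wilson 95% interval 18.0 to 18.7%, counting error only) and 4.35% of all loci.

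The study used ATAC-seq, in which the Tn5 transposase cuts DNA that nucleosomes do not cover, on grain of AK58 (AiKang58 in the labels), a cultivar of bread wheat. The samples of 5 and 9 days (DAP5 and DAP9) were endosperm, the starch-storing tissue, with the embryo taken out. Those of 15 and 20 days (DAP15 and DAP20) were entire seeds, all from plants grown in a greenhouse, so that the step from DAP9 to DAP15 was also a change of tissue, and stage and tissue cannot be told apart. Each stage had 2 sample records but 1 list of ACR coordinates, with no read number and no list per replicate. No difference between stages could therefore be set against replicate error, and the depth is unknown. Widths in single lists are given as they stand in the coordinates.

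Open chromatin in plants marks DNA that transcription factors can reach, and ACRs are taken as candidate cis-regulatory elements such as promoters and enhancers. In early grain development the endosperm builds its cells, and in the filling phase that follows it deposits starch and storage proteins such as glutenins and gliadins. A wide ACR has room for more separate binding sites than a narrow one. No genome or annotation of the build behind the coordinates was used, so genes near the loci are not named and no sequence is shown.

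The whole lists held between 101620 ACRs at DAP9 and 108846 at DAP5. From DAP5 to DAP20 the mean ACR width was 756, 786, 666 and 542 bp, so that ACRs of the DAP20 list were narrower in general. Over all constant loci the median ratio of DAP20 to DAP5 width was 0.815. The median summed width of constant loci was 800 bp at DAP5 and 627 bp at DAP20. With each width divided by this median of its stage, 4665 constant loci (10.9%) met the limit in place of 7854. The DAP15 list stood apart on chromosome 4B. Of 4B loci present in the other 3 lists it held 61.7% (59.6 to 63.8%), against 88.3% on the other chromosomes (88.0 to 88.5%). The DAP15 to DAP9 comparison, the tests over homoeologous groups and the share of loci under the limit at DAP15 were therefore also computed without 4B or its homoeologous group, and the other values on DAP15 include 4B.

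The narrowing loci began as wide ones. Their width at DAP5 was between 595 and 11750 bp with a median of 1400 bp, and 74.5% spanned at least 1000 bp. At DAP9 it was 336 to 10350 bp with a median of 1250 bp, and at DAP15 350 to 11150 bp with a median of 950 bp. At DAP20 the range was 257 to 5100 bp, the median was 457 bp, and 9.32% spanned at least 1000 bp. The other 35010 constant loci had medians of 650, 800, 700 and 650 bp from DAP5 to DAP20. The narrowing loci thus went from the wider to the narrower side of the constant loci. The DAP5 and DAP20 ends of this comparison were fixed by the choice of loci and are given without a test.

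**Figure D1:**
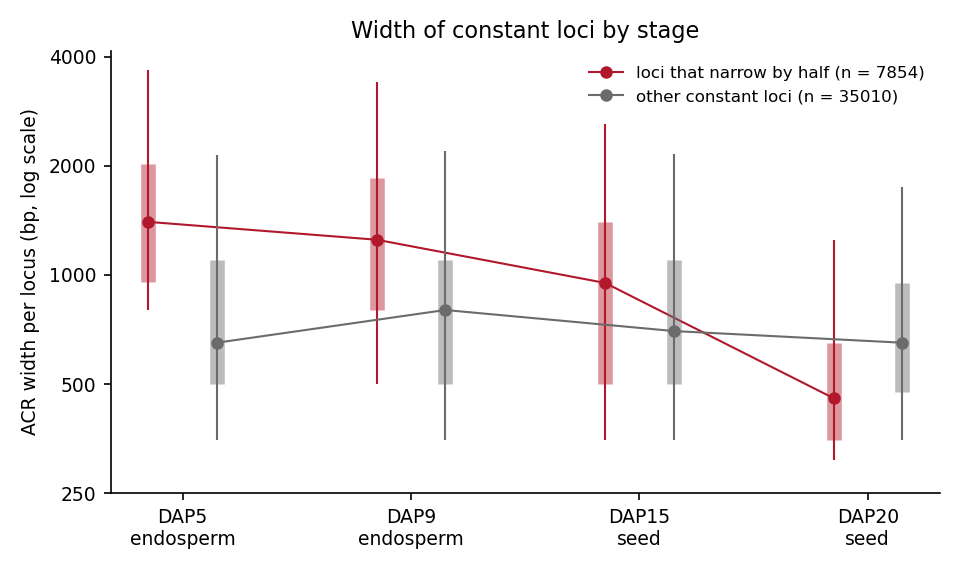
Summed ACR width per locus (bp, log scale) in the 4 lists, for the 7854 loci that narrow to at most 0.5 times their DAP5 width (red, left) and the 35010 other constant loci (grey, right). Points are medians, thick bars run from the 25th to the 75th percentile and thin bars from the 5th to the 95th. The red medians were 1400, 1250, 950 and 457 bp from DAP5 to DAP20, while the grey medians lay between 650 and 800 bp.

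In base pairs, the narrowing loci held 13.3, 11.9, 8.60 and 4.40 Mb of open DNA from DAP5 to DAP20. This was 16.2, 14.9, 12.2 and 7.79% of all base pairs in the 4 lists, in the same order. By number, their ACRs stayed a nearly even part of the lists, at 8.25% in DAP5, 8.75% in DAP9, 9.57% in DAP15 and 8.71% in DAP20.

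The ratio of DAP20 to DAP5 width had a median of 0.368 among the narrowing loci. It was at most 0.1 in 44 loci, between 0.1 and 0.2 in 619, between 0.2 and 0.3 in 1661, between 0.3 and 0.4 in 2632 and above 0.4 in 2898. The lower the ratio, the wider the loci had been at DAP5, with a median of 4000 bp in the lowest class and 1100 bp in the highest. This order was in part fixed, since the DAP5 width divides the ratio and no narrowing locus was under 257 bp at DAP20. The median DAP20 width differed less, at 350 bp in the lowest class and 500 bp in the highest. Near the limit, 95 loci had a ratio of exactly 0.5, and the first locus outside it had 0.500206. In that locus (2A, 711540874 to 711543325) there was 1 ACR of 1214 bp at DAP20, against 1 of 2427 bp at DAP5. The first of the 95 by position (1A, 41739336 to 41740751) had 1 ACR of 500 bp at DAP20, against ACRs of 350 and 650 bp at DAP5. As many as 1319 narrowing loci and 2375 others lay between 0.45 and 0.55, so the limit cuts through a continuous range.

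The most frequent width at the end was that of a single ACR of 350 bp, although most loci stayed wider. The width at DAP20 was exactly 350 bp in 2678 narrowing loci (34.1%) and at most 350 bp in 3747 (47.7%), against 14.8% and 19.7% of the other constant loci. Among the 6085 narrowing loci with 1 ACR in both lists, the most frequent pair of widths was 350 bp at DAP20 against 800 bp at DAP5, in 584 loci. Next were 350 bp at DAP20 against 950 bp at DAP5 in 376 loci and against 1100 bp in 275. Widths of 350 bp plus a multiple of 150 bp were the rule in these lists, which the authors had built from merged bins of 150 bp. ACRs off these steps made up 30.7% of the ACRs of the narrowing loci at DAP20 (29.8 to 31.7%), against 36.5% in the other constant loci (36.1 to 37.0%).

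The likelihood of being chosen depended on the width at DAP5, which the rule used. Of constant loci 650 to 799 bp wide at DAP5, 6.79% narrowed to at most 0.5 times (6.14 to 7.49%). The share was 22.4% at 800 to 949 bp, 39.3% at 1400 to 1999 bp and 53.1% at 3000 bp and above (50.5 to 55.7%). In that widest class, 758 of 1428 loci were among the narrowing ones. Loci under 500 bp had none in 8343, since no DAP20 width was below 256 bp. The converse change was rarer. A DAP20 width at least 2 times the DAP5 width was found in 1333 constant loci (3.11%), none of them a narrowing locus by the rule.

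**Figure D2:**
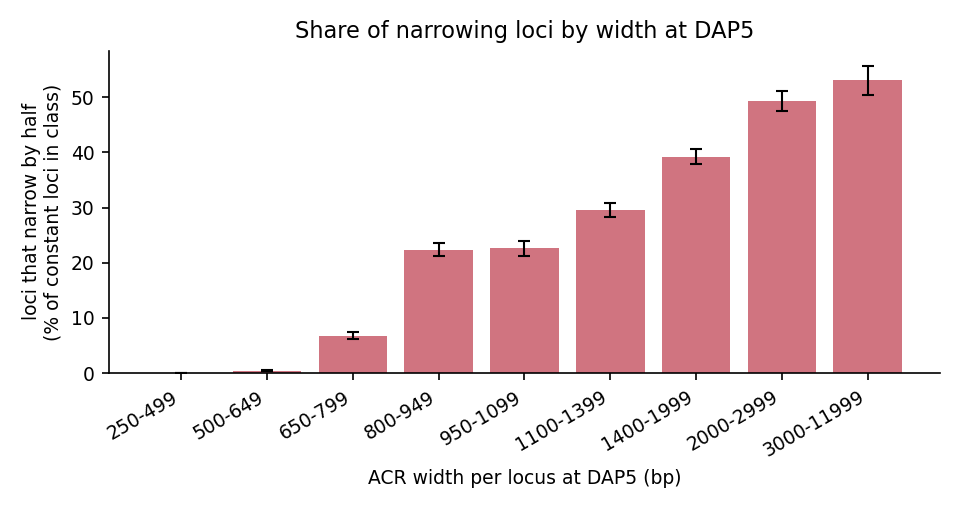
Percentage of constant loci in each class of summed DAP5 width (bp) that narrowed to at most 0.5 times that width at DAP20. Bars are shares and error bars are Wilson 95% intervals for counting error. The share was 22.4% at 800 to 949 bp and reached 53.1% at 3000 bp and above.

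To see whether the narrowing could be found in lists whose widths the choice of loci had not used, widths at DAP15 were set against those at DAP9. The choice did require an ACR in both lists, and widths went together between lists. The comparison is therefore not independent of the choice. The median ratio of DAP15 to DAP9 width was 0.735 in the narrowing loci and 1 in the other constant loci. On the log2 scale the difference of medians was -0.44 ± 0.03 (mean ± SD over 7 homoeologous groups of chromosomes). It was negative in 7 of 7 groups, and the medians were ordered this way on 21 of 21 chromosomes. An exact two-sided sign-flip permutation test over the 7 groups gave p = 0.0156 (Benjamini-Hochberg adjusted 0.0195 over 5 tests), the smallest p that 7 groups allow. Chromosomes are the units of this test and are not biological replicates. With the other constant loci weighted to the DAP5 widths of the narrowing loci, the difference was -0.34 with the same direction in 7 of 7 groups. Without homoeologous group 4, which holds 4B, it was -0.44 in 6 of 6 groups.

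A DAP15 width of at most 0.5 times the DAP9 width was found in 1815 narrowing loci (23.1%), against a background of 9.51% of all constant loci. In the other constant loci the share was 6.46%. Without 4B the share in narrowing loci was 22.8%, and on 4B alone, with 196 narrowing loci, it was 36.2%. The widths of a locus went together between lists. Across the 42864 constant loci, Spearman's rho was 0.778 for DAP5 and DAP9, 0.671 for DAP9 and DAP15 and 0.586 for DAP15 and DAP20, as a description of loci that are not independent. Choosing loci that were wide at DAP5 and narrow at DAP20 therefore also acts on the lists between them, and how much of the DAP9 to DAP15 difference came with the choice was not tested.

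The largest loss of width fell in the last step more often than in either earlier step. Between DAP5 and DAP9 the median ratio was 0.912 in narrowing loci and 1.01 in other constant loci. From DAP15 to DAP20 it was 0.538 in narrowing loci and 0.940 in the others. The largest loss in base pairs fell between DAP5 and DAP9 in 1363 loci (17.4%), between DAP9 and DAP15 in 2853 (36.3%) and between DAP15 and DAP20 in 3295 (42.0%), with ties in 343. No single step held the largest loss in most loci, and the other constant loci were not counted in this way.

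At DAP9, 604 narrowing loci (7.69%) were already at or under 0.5 times their DAP5 width, against a background of 2.63%. At DAP15 there were 2611 (33.2%, and 32.9% without 4B), against a background of 9.79%. From DAP15 to DAP20, 3414 narrowing loci (43.5%) lost at least that much in a single step, where the background was 14.4%. Against DAP9, 5757 narrowing loci (73.3%) had a DAP20 width of at most 0.5 times, with a background of 20.3%. These comparisons share the DAP5 or the DAP20 list with the rule and are descriptions. The 5011 loci that reached the limit only at DAP20 (63.8%) had median widths of 1283, 1250, 1100 and 456 bp from DAP5 to DAP20. By contrast, the 2239 loci that passed it at DAP15 but not at DAP9 had 1550, 1400, 500 and 471 bp. A small group of 372 loci was narrow at DAP9 and DAP15 alike, with medians of 1400, 500, 350 and 350 bp.

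The path was not always a steady decline. In 2032 narrowing loci (25.9%) the width fell at each of the 3 steps, which 1.83% of the other constant loci did. Another 1759 (22.4%) were wider at DAP9 than at DAP5 and then lost width at both later steps, with medians of 1384, 1700, 1000 and 350 bp. Gains of width were found in 1469 loci (18.7%) between DAP9 and DAP15, against 33.1% of the other constant loci, and in 574 (7.31%) between DAP15 and DAP20, against 28.0%. They were thus less frequent than in the other constant loci, as the choice of loci favours. The widest list was DAP5 in 4039 loci, DAP9 in 1986 and DAP15 in 698, with ties in 1131.

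Large gains were few. The width at DAP9 was at least 2 times that at DAP5 in 58 narrowing loci (0.738%, background 5.3% of constant loci). The width at DAP15 was at least 2 times that at DAP9 in 148 (1.88%, background 3.32%). Such a gain was found in 64 narrowing loci between DAP15 and DAP20 (0.815%, background 2.93%). It was found in 43 between DAP5 and DAP15 (0.547%, background 6.76%) and in 1 between DAP9 and DAP20 (0.0127%, background 1.9%). As a result of the choice of loci, gains that involve the DAP5 or the DAP20 list had to be few.

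The lost DNA lay mostly outside what remained. Base by base, 31.5% of the DAP5 bases of the narrowing loci were also covered at DAP20, against 74.1% in the other constant loci, and 9.12 Mb were lost. Of the lost bases, 88.4% lay to the left or right of the remaining DAP20 stretch and 11.6% between remaining DAP20 ACRs. In the other constant loci the values were 79.6% and 20.4%. Loss between DAP20 ACRs was not possible in the 87.4% of narrowing loci that had 1 ACR at DAP20. Both sides lost alike along the chromosome, with 44.0% on the side of lower coordinates and 44.5% on the other. Within a locus the loss was uneven. The edge that moved more had moved by a median of 708 bp and the edge that moved less by 125 bp.

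What remained had mostly been open before. The DAP20 ACRs lay wholly inside DAP5 ACRs in 5978 narrowing loci (76.1%), against 28.0% of the other constant loci. Bases new at DAP20 made up 4.80% of the DAP20 bases of narrowing loci, against 18.1% in the other constant loci. The rule favours both differences. The lists between the ends, which the rule did not use for width, were then read at these bases. Of the bases kept at DAP20, 94.3% were covered at DAP9 and 84.2% at DAP15. For the lost bases the values were 73.8% at DAP9 and 44.8% at DAP15. The other constant loci showed the same order, with 93.0% and 88.2% for kept bases and 70.9% and 54.2% for lost bases, so that it was not particular to the narrowing loci. A share of 39.1% of the lost bases was still open in both of these lists, 34.8% at DAP9 alone, 5.77% at DAP15 alone and 20.4% in neither.

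Around the middle of the DAP5 ACR the decline was gradual. Among the 6814 narrowing loci with 1 ACR at DAP5, this midpoint was inside a DAP9 ACR in 90.9%, a DAP15 ACR in 70.3% and a DAP20 ACR in 41.0%. In 32847 other constant loci of this kind the values were 97.5%, 93.2% and 91.4%. The remaining ACR was thus often off the centre. In the 4923 narrowing loci with exactly 1 ACR in each list, the DAP5 ACR was cut into 5 equal parts. The DAP20 midpoint fell in the central part in 24.0%, in the parts beside it in 26.8% and 25.5%, and in the outermost parts or beyond in 12.2% and 11.5%. A short ACR has more room to lie off the centre than a wide one, so this is a description of shape only.

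**Figure D3:**
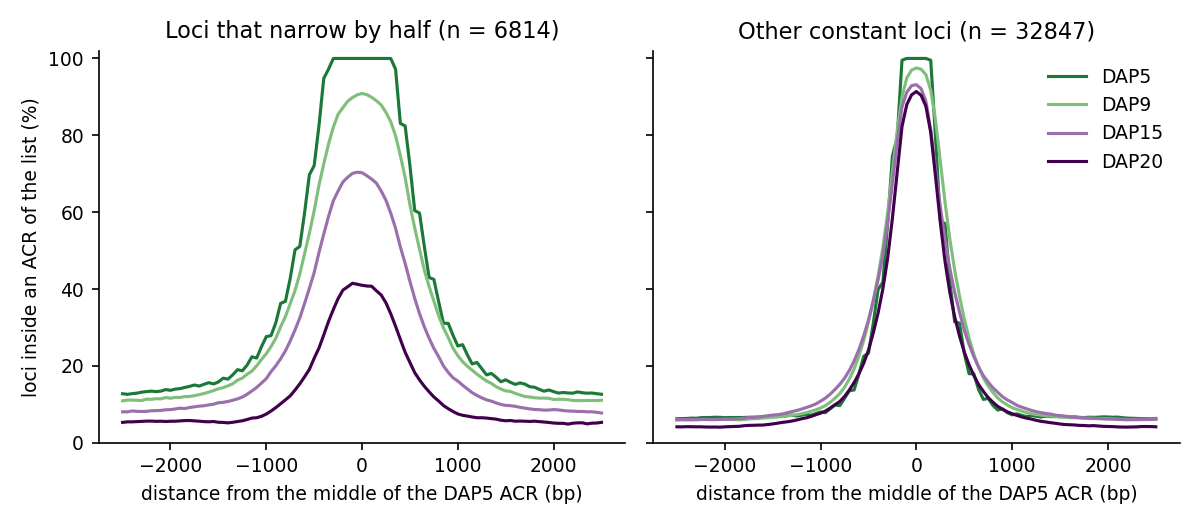
Percentage of loci inside an ACR of each list against the distance from the middle of the DAP5 ACR (bp), for 6814 narrowing loci (left) and 32847 other constant loci (right) with 1 ACR at DAP5. Lines are the lists from DAP5 to DAP20, and DAP5 is at 100% in the middle by construction. At the middle the DAP20 line reached 41.0% in narrowing loci and 91.4% in the others.

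At 2000 bp from the middle, 13.3% of the narrowing loci were inside a DAP5 ACR, 11.3% inside a DAP9 ACR, 8.64% inside a DAP15 ACR and 5.15% inside a DAP20 ACR. The other constant loci had 6.73%, 6.28%, 6.18% and 4.25% there. These values include the DAP5 ACR itself wherever it reached that far, so that the choice of wide loci fixes a part of them.

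Narrowing took several forms. The largest class, 3253 loci (41.4%), lost width from 1 edge while the other edge moved inwards by at most 150 bp, or outwards. Both edges moved by more than that in 2783 loci (35.4%). In 817 loci (10.4%) at least 1 whole DAP5 ACR had no DAP20 ACR on it. Another 780 (9.93%) held more ACRs at DAP20 than at DAP5, which is called splitting here. The last 221 loci (2.81%) had less than 50% of their DAP20 bases inside DAP5 ACRs, so that the open stretch had shifted. Each locus was counted in 1 form only, with shift taken first, then loss of whole ACRs, then splitting, then the edges.

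The form went with the width at DAP5, in part by construction. Of the 2004 loci under 1000 bp, 69.4% narrowed from 1 edge and none split. The rule held their DAP20 width to at most 0.5 times the DAP5 width. No constant locus was under 256 bp at DAP20, so these loci had almost no room for more than 1 ACR. The edge limit of 150 bp was also the same at all widths, which favours the form with 1 edge in small loci. Among the 758 loci of at least 3000 bp, 50.5% split and 76 loci narrowed from 1 edge. Loci that split had a median of 1000 bp at DAP20, spread over a mean of 2.29 ACRs, against 2900 bp at DAP5. Loci narrowed from 1 edge had 350 bp at DAP20 and 1100 bp at DAP5. Loss of whole ACRs was the form with the lowest DAP15 to DAP9 ratio, with a median of 0.680, and the median of the other 4 forms lay between 0.714 and 0.769.

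The narrowing loci held more ACRs per locus than the other constant loci already at DAP5, with a mean of 1.14 against 1.07, and 13.2% against 6.18% had more than 1. They averaged 1.13 ACRs per locus at DAP9, against 1.04 in other constant loci, and 1.29 at DAP15, against 1.09. The difference was 0.0933 ± 0.00647 ACRs at DAP9 and 0.197 ± 0.0197 at DAP15 (mean ± SD over 7 homoeologous groups), positive in 7 of 7 groups each time. Both exact sign-flip permutation tests gave p = 0.0156 (adjusted 0.0195). The choice of loci by DAP5 and DAP20 width also acts on the lists between them, so these tests are not independent of the choice. Wide loci hold more ACRs, and with the other constant loci weighted to the same DAP5 widths the differences shrank to 0.0249 at DAP9 and 0.0508 at DAP15, still positive in 7 of 7 groups. At DAP20 the mean was 1.16 in narrowing loci and 1.15 in the others, and 12.6% had more than 1 ACR in either set.

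The widest of the narrowing loci (1D, 408067550 to 408079545) was 1 ACR of 11750 bp at DAP5. At DAP9 it held 5 ACRs with together 4600 bp, at DAP15 5 ACRs with 5548 bp and at DAP20 3 ACRs with 2506 bp. The DAP20 ACRs of 1250, 306 and 950 bp covered both ends of the DAP5 stretch, and most of its middle was lost. Here the width shrank while the span from the first to the last ACR did not, with a DAP20 span 1.01 times the DAP5 span.

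The next by width at DAP5 also held more ACRs at DAP20 than at DAP5. A locus on 3A (632541938 to 632553173) had widths of 10976, 10350, 11150 and 5100 bp from DAP5 to DAP20, the last in 6 ACRs, so that nearly all of its loss fell after DAP15. It was also the widest narrowing locus at DAP20. A locus on 2D (8566157 to 8576849) stayed at 9850 bp up to DAP9, then had 7581 bp at DAP15 and 3246 bp in the DAP20 list. It had 2 ACRs at DAP5 and 5 at DAP20, and its DAP20 span was 0.525 times its DAP5 span. On 1B (548962776 to 548972580) the widths were 9505, 8079, 6250 and 2037 bp from DAP5 to DAP20, and the DAP20 bases lay in 6 ACRs of at most 350 bp each. A second locus on 1D (408237832 to 408247631) had 9500, 9050, 5648 and 2284 bp.

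These loci on 1D lay close together. Between 408067550 and 408247631 there were 4 constant loci, a region chosen after its values had been seen, and each of the 4 was a narrowing one. The other loci there were 9350, 4400, 2850 and 1420 bp wide (408199694 to 408209074) and 1833, 1400, 1250 and 650 bp wide (408153470 to 408155302) from DAP5 to DAP20. All 4 had 1 ACR at DAP5.

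The strongest narrowing was on 7D (14879119 to 14886866). This locus had 7450 bp in 2 ACRs at DAP5, 3794 bp in 4 ACRs at DAP9, 1500 bp in 3 ACRs at DAP15 and 1 ACR of 292 bp at DAP20, a ratio of 0.0392. Another locus of 7D (4514053 to 4520097) had 5849, 4650, 1500 and 350 bp from DAP5 to DAP20. Its DAP20 ACR overlapped none of its DAP15 ACRs. Both loci of 7D lost most of their width before DAP20. A locus on 2D (535106001 to 535112350) behaved otherwise, with 6284, 6350, 4400 and 350 bp, so that its main loss fell after DAP15. On 7B (5215144 to 5220687) the widths were 5431, 2550, 1300 and 345 bp, and the small DAP20 ACR sat at the edge with the lowest coordinates. On 2A (156361722 to 156367584) they were 5450, 4900, 2850 and 350 bp.

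For the forms of narrowing, the locus with the largest DAP5 width is given. Narrowing from 1 edge was widest on 5A (575703556 to 575709787), with 5886, 1000, 950 and 1234 bp from DAP5 to DAP20, and the right edge had moved by 4998 bp. The 2 DAP9 ACRs of this locus did not lie where the DAP15 and DAP20 ACRs lay. Narrowing from both edges was widest on 5B (604062361 to 604069010), with 6650, 5900, 2650 and 1700 bp from DAP5 to DAP20. Here each later list lay inside the extent of the one before. Loss of whole ACRs was widest on 4A (705501762 to 705510811), where an ACR of 650 bp at DAP5 had no DAP20 counterpart and the other, of 8000 bp, had become 3 ACRs with 2679 bp. The widest shifted locus (2A, 58547350 to 58551244) had 3629, 2350, 500 and 350 bp from DAP5 to DAP20, and the DAP20 ACR began before the DAP5 start.

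**Figure D4:**
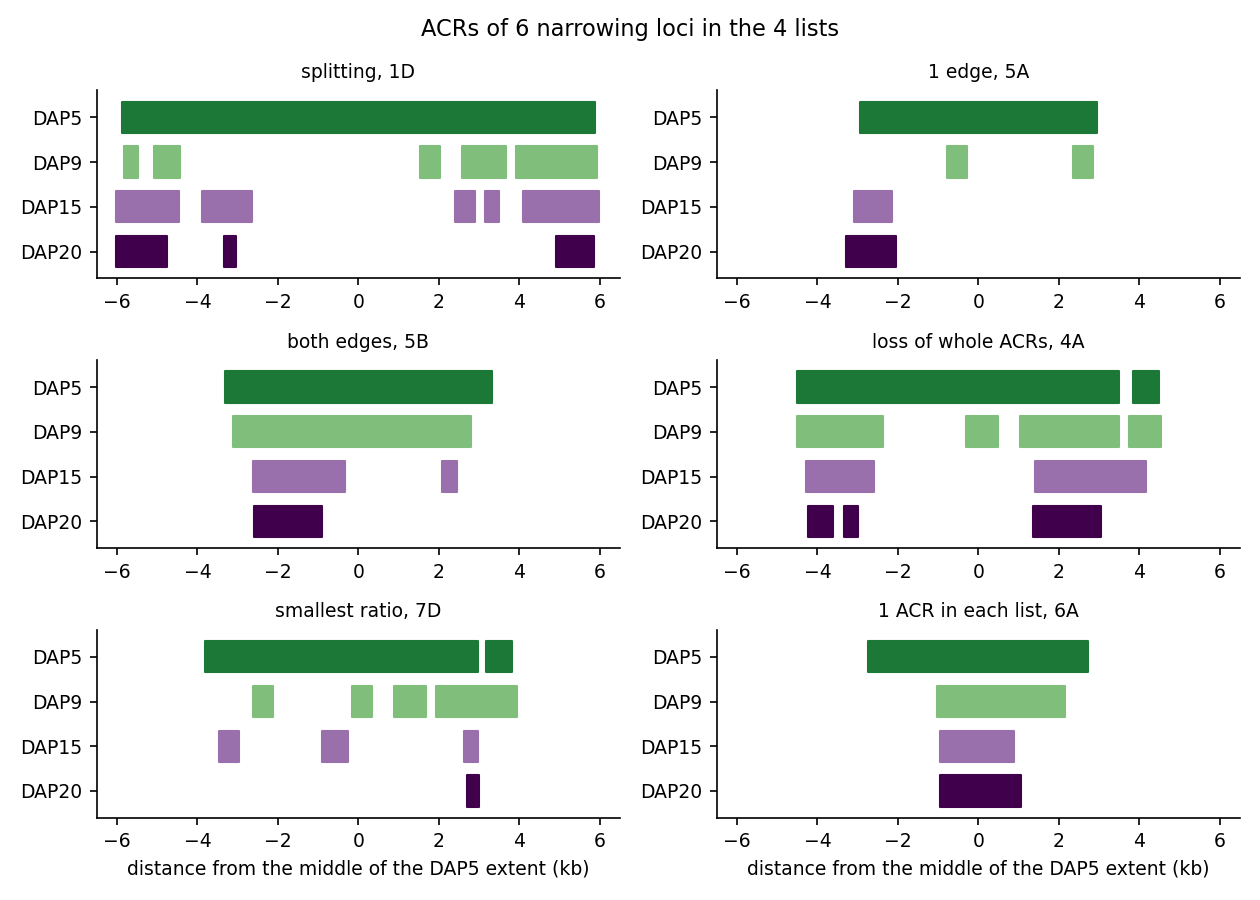
ACRs of 6 narrowing loci in the 4 lists, from DAP5 at the top to DAP20 at the bottom, against the distance from the middle of the DAP5 extent (kb). Each bar is 1 ACR. The locus on 1D kept pieces at both ends of its DAP5 stretch of 11750 bp, that on 7D was left with 292 bp, and that on 6A, chosen after its values had been seen, had 5461, 3200, 1850 and 2000 bp from DAP5 to DAP20.

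Strict nesting from list to list was rare. Among narrowing loci with 1 ACR in each list, 184 of 4923 (3.74%) had each later ACR inside the one before, against 0.113% of the other constant loci of this kind. The DAP20 ACR lay inside the DAP5 ACR in 81.8% of these narrowing loci, inside the DAP15 ACR in 49.6%, and the DAP9 ACR inside the DAP5 ACR in 37.7%. The other constant loci had 30.1%, 30.6% and 15.6%, in the same order. The rule favours such nesting, since it asks for a wide DAP5 and a narrow DAP20 stretch.

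The next widest DAP20 remnants after that on 3A lay nearer to chromosome ends. On 2D (613340131 to 613349444), at 94.1% of the chromosome length, the widths were 8643, 8500, 3950 and 4102 bp from DAP5 to DAP20. On 1A (592306976 to 592315128), at 99.7% of the length, they were 8140, 7407, 5100 and 3790 bp.

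Narrowing loci stood closer to their neighbours than other constant loci, but not closer than loci of the same width. The median gap to the nearest constant locus was 12.9 kb for narrowing loci and 20.7 kb for others. The difference was -0.19 ± 0.06 on the log10 scale (mean ± SD over 7 homoeologous groups), negative in 7 of 7 groups (exact sign-flip permutation p = 0.0156, adjusted 0.0195). With the other constant loci weighted to the same DAP5 widths, their median gap was 9.46 kb and the difference turned to 0.139, positive in 7 of 7 groups (exact permutation p = 0.0156, adjusted 0.0156). The sign of this comparison thus depended on whether width was taken into account.

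Narrowing loci had narrowing neighbours more often than other constant loci did, without account of width. A constant locus lay within 10 kb of 3649 narrowing loci (46.5%), and 27.5% of these nearest neighbours were narrowing loci themselves, against 18.8% of the nearest neighbours of other constant loci. These neighbours were also wider at DAP5, with a median of 1100 bp against 850 bp. Over all constant loci the share that narrowed was 22.4% at 800 to 949 bp and 29.5% at 1100 to 1399 bp. Whether the difference between neighbours goes beyond their width was not tested. The median DAP15 to DAP9 ratio of the neighbours was 0.864 beside narrowing loci and 1 beside the others. Another narrowing locus lay within 10 kb of 1251 narrowing loci (15.9%). Over all 7854, the median gap to the nearest narrowing locus was 270.1 kb.

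Loci that were not constant followed the same direction near narrowing loci. Within 10 kb, 9580 such loci had a narrowing locus as their nearest constant locus, of which 47.6% were in the DAP5 list and not in the DAP20 list (46.6 to 48.6%) and 19.5% the reverse (18.7 to 20.3%). Beside other constant loci, 37698 of them showed 33.2% (32.7 to 33.7%) and 27.7% (27.2 to 28.1%). For the lists whose widths the choice did not use, 27.4% were in DAP9 and not in DAP15 beside narrowing loci (26.5 to 28.3%) and 22.6% the reverse. Beside other constant loci the order was the opposite, at 21.9% in DAP9 and not in DAP15 (21.5 to 22.3%) and 30.7% the reverse. The intervals cover counting error only and neighbouring loci are not independent, so these shares are descriptions. The first contrast uses the DAP5 and DAP20 lists of the rule. Whether either contrast goes beyond the DAP5 width of the constant loci was not tested.

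Along the chromosomes, 60.9 ± 3.49% of the narrowing loci and 61.8 ± 2.85% of the other constant loci lay in the outer 20% at either end (mean ± SD over 7 groups). The difference of -0.915 ± 2.32 percentage points (positive in 3 of 7) did not pass the threshold (exact sign-flip permutation p = 0.406, adjusted 0.406). With the other constant loci weighted to the same DAP5 widths, narrowing loci lay at the ends less often by -5.14 points, with the same sign in each of the 7 groups (exact permutation test, adjusted p = 0.0156). Restricted to loci with 1 ACR in each list, the difference was -2.62 points (negative in 6 of 7 groups; exact permutation test, adjusted p = 0.0469). Over 10 equal stretches of the chromosome length, the share of constant loci that narrowed was between 15.4% and 19.7%. Larger contrasts were seen in windows of 5 Mb with at least 40 constant loci, chosen after their values were seen. The share was highest on 5A, in the window from 665000001, where 20 of 48 constant loci narrowed (41.7%). It was lowest on 1D, in the window from 435000001, with 2 of 45 (4.44%).

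Divergence between the 3 related subgenomes of bread wheat was a question of the study. The share of constant loci that narrowed averaged 18.3 ± 1.60% over the 7 A chromosomes, 16.9 ± 1.42% over the B and 19.6 ± 1.21% over the D chromosomes (SD, n = 7 each). A exceeded B by 1.40 points in 6 of 7 homoeologous groups (exact sign-flip permutation p = 0.0625, adjusted 0.0938). B lay below D by -2.72 points in 6 of 7 groups (exact permutation test, p = 0.0312, adjusted 0.0938). A lay below D by -1.32 points in 4 of 7 (exact permutation test, p = 0.188, adjusted 0.188). None of the 3 comparisons passed the threshold of 0.05 after adjustment, and 1 had a raw p under it. At equal DAP5 widths, A exceeded B by 2.04 points and B lay below D by -2.30 points, both with an adjusted exact permutation p of 0.0469. The highest single share was 21.0% on 6D and the lowest 15.1% on 7B, with 15.7% on 4B.

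**Figure D5:**
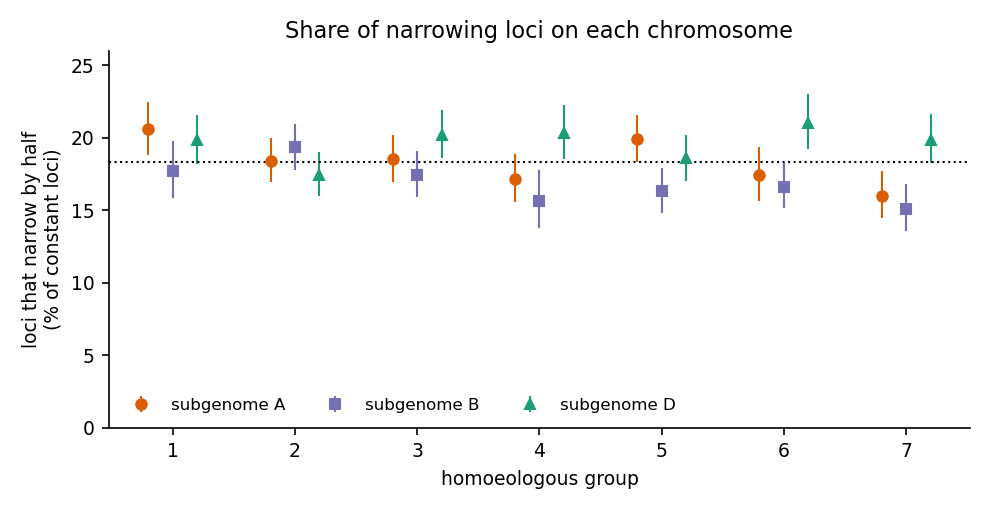
Percentage of constant loci that narrowed to at most 0.5 times their DAP5 width on each chromosome, by homoeologous group and subgenome. Points are shares, bars are Wilson 95% intervals for counting error, and the dotted line is the share over all chromosomes (18.3%). The D chromosome was above the B chromosome in 6 of 7 groups.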

How the data were processed

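The authors trimmed ATAC-seq reads (fastp in the methods, Trimmomatic 0.36 in the submitters' processing notes), aligned them with Bowtie2, removed duplicates with Picard, called raw peaks with MACS2 and merged bins of 150 bp that passed a minimum density of Tn5 sites. The minimum, the genome build and any pooling of replicates were not given in the sources used here. The deposited values are the start and end of each ACR in base pairs, in 1 list per stage, and how the calling set the widths was not tested. Printed coordinates count from 1.

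Loci, widths, ratios and shares were computed with Python 3.11.15, numpy 2.4.6, pandas 2.3.3 and scipy 1.17.1, and figures with matplotlib 3.10.9. The code was tested on simulated data. Narrowing loci were set against other constant loci in two-sided exact permutation tests, flipping signs over 7 homoeologous groups, adjusted by Benjamini-Hochberg over 5 tests, or over 3 for subgenomes. The largest end coordinate stood in for chromosome length. Weighting used DAP5 width classes of 150 bp, and DAP9 width classes in 1 recalculation of the DAP15 to DAP9 difference.

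The loci named were the 5 widest at DAP5, the 5 with the smallest ratio, the 3 widest at DAP20, the widest at DAP5 of each subgenome and of each form of narrowing, and those next to the limit. Loci, rules and tests were chosen with earlier results of these data known. RefSeq gene coordinates were not used, since the build of the lists is not known to match theirs.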

Additional observations from a re-analysis of the deposited data

How the results depend on the processing

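No paired analysis was possible because each stage came with a single list that carries no replicate, and leaving out a replicate could not be done either. Alternatives for genes were not run, since no annotation of the build was used. The share of constant loci that narrowed stayed inside its interval with a minimum ACR width of 300 or 350 bp and without 4B. It was 20.2% with merging within 500 bp, 21.3% with the widest ACR per list, 16.9% with the span, 14.8% for loci with 1 ACR in each list, 11.6% and 27.4% with limits of 0.4 and 0.6, and 23.2% with ACRs on the 150 bp steps only, which was chosen after seeing the data. With each width divided by the median width of constant loci at its stage it was 10.9% (4665 loci, against 7854), since constant loci were narrower at DAP20 in general.

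The DAP15 to DAP9 difference kept its direction and its call in all 7 recalculations, from -0.51 to -0.30 on the log2 scale (adjusted exact permutation p from 0.0156 to 0.0391). The value of -0.30 came with the other constant loci weighted to the DAP9 widths of the narrowing loci, and that of -0.51 with the widest ACR. The gap to the nearest constant locus reversed to 0.139 on the log10 scale at equal DAP5 widths. The share at the ends passed the threshold at equal DAP5 widths (-5.14 points) and for loci with 1 ACR in each list (-2.62 points), and its adjusted p ran from 0.0156 to 0.938 over 5 alternatives. At equal DAP5 widths A minus B (2.04 points) and B minus D (-2.30 points) passed as well, and over 3 alternatives their adjusted p ran from 0.0469 to 0.188. In all, 23 recalculated tests kept direction and call, 4 newly passed and 1 reversed.

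Of alternatives chosen after seeing the data, narrowing loci already under the limit at DAP15 made up 39.9% with the widest ACR, 30.5% with the span and 34.9% with 1 ACR in each list. Narrowing from 1 edge made up 59.6% when an edge could move by 300 bp and 53.9% with 1 ACR in each list. Of 17 named loci, 8 had a span ratio above 0.5. Beyond stricter or wider limits, the cause of these shifts was not tested. Depth is unknown, so widths near 350 bp cannot be weighed.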
